A study of Mus musculus with 8 samples.

Results

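The transcription of 7 chemokine receptor genes was followed in mouse bone marrow-derived macrophages after lipopolysaccharide (LPS), a bacterial surface molecule sensed by Tlr4. The 7 members, Ccr1, Ccr2, Ccr3, Ccr7, Ccrl2, Cx3cr1 and Cxcr4, were taken by gene symbol from the 22753 genes of the deposited table, and all 7 were found. Nascent RNA was read by global run-on sequencing (GRO-seq), in which nuclei extend RNA from polymerases already engaged on DNA in the presence of a bromouridine label, and the labelled RNA is captured and sequenced. The cells came from male C57BL/6 mice 8 weeks old. They were grown from marrow, kept in serum-free macrophage medium and given LPS at 100 ng/ml for 0, 20, 60 or 180 min. The 0 min group had no treatment, and no genetic change is named for any group. Each group had 2 libraries from biological replicates (n = 2), 8 in all. Whether a replicate was an animal, a pool of animals or a culture is not given in the sources used here, so p-values measure the spread between these libraries, which may be in part technical.

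Chemokine receptors are membrane proteins that cross the membrane several times and, when they bind a chemokine, pass the signal to inhibitory G proteins, which leads to cell movement along a chemokine gradient. Bound receptors are taken up with the help of arrestins, and a few atypical receptors bind ligand without signalling through G proteins. In monocytes and macrophages the family sets exit from the marrow, entry into inflamed tissue and passage to lymph nodes, and stimulation through Toll-like receptors is known to change the set of receptors that a cell makes.

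The stretch of DNA just before each start is printed for 4 members, as the record behind the motif matches given below. RefSeq entries on GRCm38.p6, another build than the mm9 of the expression file, were found for 6 of the 7 members, with 8 starts in all because Ccrl2 has 3. Ccr7 had no entry. Each sequence is the 250 bases before the start, in the direction of the gene, with motif matches in capitals. Ccrl2 is shown for an NF-kB match and Ccr3 for overlapping NF-kB and PU.1 matches and an AP-1 match. Ccr2 is shown for a match to the interferon-stimulated response element (ISRE) on the other strand, and Cxcr4 as a gene with no match.
Ccrl2, chr9:111057519-111057768, minus strand: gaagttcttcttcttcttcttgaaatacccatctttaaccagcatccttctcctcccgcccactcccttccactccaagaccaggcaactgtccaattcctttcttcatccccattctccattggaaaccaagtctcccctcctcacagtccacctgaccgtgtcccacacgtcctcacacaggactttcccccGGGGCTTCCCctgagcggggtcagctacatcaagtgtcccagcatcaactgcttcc
Ccr3, chr9:124021721-124021970, plus strand: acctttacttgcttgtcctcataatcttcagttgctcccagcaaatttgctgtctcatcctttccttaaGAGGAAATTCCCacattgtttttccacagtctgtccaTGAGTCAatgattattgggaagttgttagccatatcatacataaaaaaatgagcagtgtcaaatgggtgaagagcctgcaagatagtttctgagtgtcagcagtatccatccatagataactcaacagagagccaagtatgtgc
Ccr2, chr9:124101933-124102182, plus strand: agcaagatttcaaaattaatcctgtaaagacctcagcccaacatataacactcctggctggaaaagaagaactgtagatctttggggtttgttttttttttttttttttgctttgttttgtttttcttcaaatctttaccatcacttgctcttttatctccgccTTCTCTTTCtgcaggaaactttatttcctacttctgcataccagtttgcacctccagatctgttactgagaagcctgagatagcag
Cxcr4, chr1:128592300-128592549, minus strand: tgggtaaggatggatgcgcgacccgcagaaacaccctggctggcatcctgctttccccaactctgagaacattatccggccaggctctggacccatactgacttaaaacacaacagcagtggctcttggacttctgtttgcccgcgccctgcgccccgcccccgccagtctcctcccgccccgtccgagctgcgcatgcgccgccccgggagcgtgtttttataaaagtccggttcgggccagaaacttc

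The motifs were searched on both strands, and a match is a description of the letters only. The NF-kB consensus is given by name alone, since some of its positions admit a pair of bases. The others were TGANTCA for AP-1, GAAANNGAA for the ISRE, TTGCNNAA for C/EBP and GAGGAA for the PU.1 core. The NF-kB match of Ccrl2, GGGGCTTCCC, lay at -56 to -47 from the start of 1 of its 3 entries, and the other two entries held no match to any of the 5 motifs. That of Ccr3, GGAAATTCCC, lay at -179 to -170 from the start and overlapped a PU.1 core at -181 to -176. The AP-1 match of Ccr3, TGAGTCA, lay at -144 to -138. The ISRE match of Ccr2, TTCTCTTTC as read along the gene, lay at -86 to -78, and Ccr1 held a PU.1 core at -129 to -124. Cx3cr1 and Cxcr4 held none of the 5 motifs in this window, and no member held the C/EBP motif. Among 27025 mouse genes with an entry, the NF-kB consensus was found in 4.46%, AP-1 in 7.82%, the ISRE in 8.18%, C/EBP in 10.8% and the PU.1 core in 25.9%.

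Values were deposited as FPKM, fragments per kilobase of the whole gene span, scaled to the library total. The depth recovered from the values was 44.4 to 61.2 M reads in replicate 1 and 7.96 to 11.1 M reads in replicate 2, so low values of replicate 2 rest on few reads. All 8 macrophage markers passed the filter on low values, and their summed level was 59.8 to 216 FPKM in the 8 libraries. Differences are of log2(FPKM + 0.1) from limma with Benjamini-Hochberg adjustment over the 8343 genes that averaged 0.5 FPKM or more, and adding 0.1 shrinks the differences of low genes. The unpaired fit holds the time alone. The paired fit adds the replicate number as a block, because libraries of the same number deviated together at all times. Over all genes the median difference from 0 min was -0.20, -0.29 and -0.69 at 20, 60 and 180 min, and median-ratio scaling, which takes this shift out, left it at 0.01, 0.01 and -0.01. In bulk cells, fewer cells of a type and less RNA per cell cannot be told apart.

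Transcription of Ccrl2 rose 21.0-fold and 56.9-fold within the replicates by 180 min, and that of Ccr3 was higher at 20 and 60 min in both. Cxcr4, Ccr2 and Ccr1 fell at 60 and 180 min in the paired fit, Cx3cr1 was at its lowest at 180 min, and Ccr7 was covered by 2 to 40 reads a library. Of the 7 members, 5 passed the filter. Ccr7 and Cx3cr1, with means of 0.060 and 0.385 FPKM, did not, and are described from their values and from fits without it. In the unpaired fit limma called 0 of the 5 at 20 min against 0 min, with 2 higher before adjustment (p under 0.05), and 0 were called by voom on recovered reads. It called 1 higher at 60 min and 1 higher at 180 min, which was Ccrl2 both times. The paired fit called 2 higher at 20 min, 2 higher and 3 lower at 60 min, and 1 higher and 3 lower at 180 min. All 5 passed the paired F-test over time and 1, Ccrl2, the unpaired one (adjusted p = 0.0234).

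The background of calls over all 8343 genes differed between these comparisons. The unpaired fit called 0.108% higher and 0.00% lower at 20 min, 5.07% and 8.80% at 60 min, and 8.93% and 23.4% at 180 min. The paired fit called 2.30% higher and 0.683% lower at 20 min, 11.7% and 27.9% at 60 min, and 14.2% and 51.6% at 180 min. The F-test over time called 24.6% of genes unpaired and 66.1% paired. The 2 members called higher in the paired fit at 20 min were thus among a small share of genes, whereas a lower level at 180 min was called in most genes tested. Median-ratio scaling moved the split of all genes at 180 min to 1124 higher and 1052 lower unpaired, from 745 and 1951, and to 2176 and 2149 paired, from 1184 and 4302. At 60 min it moved it to 561 and 553 unpaired, from 423 and 734, and to 1626 and 1696 paired, from 976 and 2328. At 20 min the paired split went from 192 and 57 to 168 and 23.

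**Figure D1:**
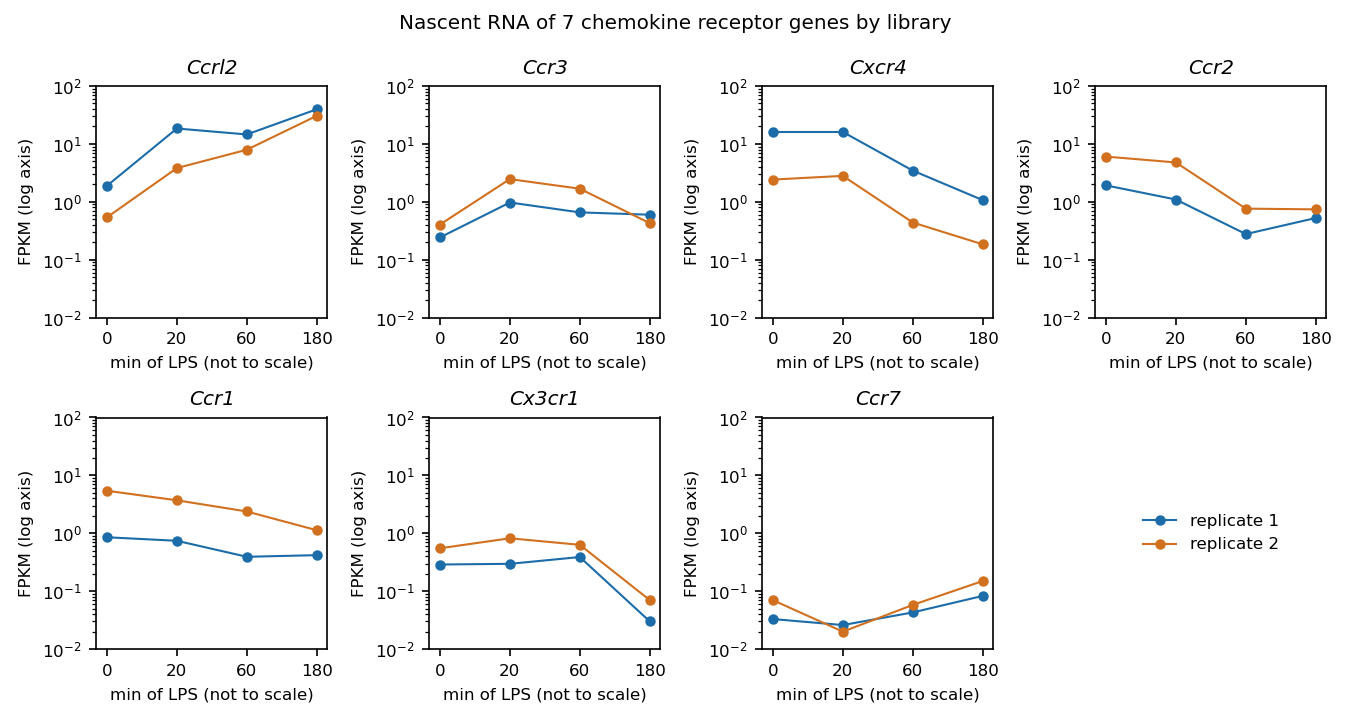
Deposited FPKM (log axis) of the 7 members at 0, 20, 60 and 180 min of LPS (times not to scale), with 1 line for each replicate number. Ccrl2 reaches 39.7 and 30.6 FPKM at 180 min, Cxcr4 and Cx3cr1 end at their lowest values, and the lines of Cxcr4 and Ccr1 stay apart at all times.

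Ccrl2 encodes an atypical receptor that binds the attractant chemerin and can hold it at the cell surface without G protein signalling. Its span on mm9 is chromosome 9 from 110957339 to 110959774 on the minus strand, or 2435 bases. In replicate 1 it stood at 1.89, 18.4, 14.6 and 39.7 FPKM at 0, 20, 60 and 180 min, and in replicate 2 at 0.538, 3.82, 7.93 and 30.6 FPKM. The 2 libraries of 0 min were the lowest and the 2 of 180 min the highest, and neither group overlapped any other. The value of replicate 2 at 0 min rested on 12 reads (exact 95% Poisson interval 0.278 to 0.939 FPKM, which covers counting error only, as do the other such intervals here). Within a replicate number the level at 180 min was 21.0-fold that at 0 min in replicate 1 and 56.9-fold in replicate 2.

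The difference of Ccrl2 from 0 min was 2.92 ± 0.83 (SE) at 20 min, 3.27 ± 0.83 at 60 min and 4.96 ± 0.83 at 180 min on the log2 scale. The adjusted p was 0.535, 0.0451 and 0.00591 in the unpaired fit and 0.00453, 3.04e-04 and 1.73e-05 in the paired fit, whose SE was 0.39. At 180 min the unpaired call held with each library left out, at an adjusted p up to 0.0424. At 60 min it was lost without any 1 of the 0, 60 or 180 min libraries: leaving out replicate 1 or 2 gave an adjusted p of 0.0655 or 0.197 for 0 min, 0.127 or 0.104 for 60 min, and 0.0815 or 0.0814 for 180 min. The paired calls against 0 min held with each library left out, but that at 20 min was lost in the paired fit without the filter on low values (adjusted p = 0.110). After median-ratio scaling the difference at 180 min was 5.67 in both fits. From 60 to 180 min the difference was 1.69 (adjusted p = 0.254 unpaired and 0.0115 paired). That paired call was lost without 60 min replicate 1 (0.0840) or 180 min replicate 2 (0.159), and without the filter (0.0712). Between 20 and 60 min the replicates moved in opposite directions, and the difference of 0.35 was not called in either fit (0.914 and 0.571).

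Ccr3 encodes the receptor for the eotaxins, best known from eosinophils and basophils. On mm9 it lies on chromosome 9 from 123936703 to 123946421 on the plus strand. Its values in replicate 1 were 0.242, 0.972, 0.656 and 0.598 FPKM at 0, 20, 60 and 180 min, and in replicate 2 0.404, 2.47, 1.68 and 0.427 FPKM. The level was highest at 20 min in both replicates, and the groups of 20 and 60 min each lay above that of 0 min without overlap. At 180 min replicate 2 was back near its starting value, while replicate 1 was not.

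Against 0 min, Ccr3 differed by 2.00 ± 0.56 at 20 min, 1.48 ± 0.56 at 60 min and 0.55 ± 0.56 at 180 min. The unpaired fit called none of these, at an adjusted p of 0.532, 0.138 and 0.469. The paired fit called a rise at 20 min (SE 0.39, adjusted p = 0.0288) and at 60 min (0.0153) and not at 180 min (0.235). The call at 20 min was lost without 20 min replicate 1 (0.0601) or replicate 2 (0.122), and that at 60 min without 60 min replicate 2 (0.167). Both were also lost in the paired fit without the filter (0.183 and 0.0590). The sign of the paired difference at 180 min depended on which library of that time was kept. It was 1.26 from replicate 1 alone and -0.17 from replicate 2 alone. With both libraries and median-ratio scaling, the paired fit called a difference of 1.13 (adjusted p = 0.0264). The change from 60 to 180 min was -0.94 (0.341 unpaired and 0.0858 paired). It was called in the paired fit without 0 min replicate 1 (0.0482) or 180 min replicate 1 (-1.65, adjusted p = 0.00998).

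Genes that mark the cells best known for Ccr3 were low in these libraries. Of 4 eosinophil markers 0 passed the filter, and Epx, the eosinophil peroxidase, was listed at 0 in all 8 libraries. Their summed level was 0.301 to 0.751 FPKM at 0 min and 0.373 to 0.485 at 20 min, nearly all of it from Siglec5. The 4 mast cell and basophil markers summed to at most 0.018 FPKM in any library.

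Cxcr4 encodes the receptor for Cxcl12, which holds myeloid cells in the marrow. The gene lies on mm9 chromosome 1 from 130484776 to 130488876 on the minus strand, and no other gene of the file lay within 100 kb. In replicate 1 it stood at 16.1, 16.1, 3.45 and 1.07 FPKM at 0, 20, 60 and 180 min, and in replicate 2 at 2.42, 2.80, 0.438 and 0.184 FPKM. Each replicate held its level at 20 min and was lower at both later times, but replicate 1 lay so far above replicate 2 that the groups of 0 and 60 min overlapped. Within a replicate number the level at 0 min was 15.0-fold and 13.2-fold that at 180 min. The last value of replicate 2 rested on 6 reads (95% interval 0.0675 to 0.400 FPKM).

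With this gap between replicates, the difference of Cxcr4 from 0 min was not called in the unpaired fit at any time. It was 0.10 ± 1.37 at 20 min, -2.21 ± 1.37 at 60 min and -3.47 ± 1.37 at 180 min, with an adjusted p of 0.998, 0.355 and 0.0919. In the paired fit Cxcr4 fell at 60 min (SE 0.23, adjusted p = 1.58e-04) and at 180 min (8.20e-06), and the value at 20 min was not called (0.842). It fell between 20 and 60 min by 2.31 (0.452 unpaired and 3.04e-04 paired) and between 60 and 180 min by 1.26 (0.599 and 0.00411). These 4 paired calls held with each library left out. After median-ratio scaling the paired differences from 0 min were -1.90 at 60 min and -2.85 at 180 min, and both were called.

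Ccr2 encodes the receptor for Ccl2, which draws inflammatory monocytes out of the marrow. On mm9 the gene lies on chromosome 9 from 124016922 to 124023879 on the plus strand. In replicate 1 its values were 1.92, 1.10, 0.277 and 0.525 FPKM at 0, 20, 60 and 180 min, and in replicate 2 6.04, 4.78, 0.762 and 0.740 FPKM. Replicate 1 was lowest at 60 min and stood at 1.90-fold that level at 180 min, while replicate 2 was alike at both times. The difference between these times, 0.35, was not called (adjusted p = 0.820 unpaired and 0.442 paired). All 4 libraries of 60 and 180 min lay below the 4 of 0 and 20 min. The difference from 0 min was -0.54 ± 0.81 at 20 min (adjusted p = 0.997 unpaired and 0.429 paired). At 60 min Ccr2 fell by 2.63 in the paired fit alone (0.0789 unpaired and 4.87e-04 paired), and at 180 min by 2.28 (0.0701 and 5.64e-04). The SE in the paired fit was 0.35, and after median-ratio scaling of that fit the difference at 180 min was -1.59 (0.00179). Most of the drop fell between 20 and 60 min, where the paired fit called a decrease by 2.08 (0.225 unpaired and 0.00284 paired). The unpaired fit called the difference at 180 min without 20 min replicate 1 (0.0499) or replicate 2 (0.0498). The paired calls held with each library left out.

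Ccr1 encodes a receptor for Ccl3, Ccl5 and related chemokines of inflammation. It lies on mm9 chromosome 9 from 123876959 to 123883525 on the minus strand. In replicate 1 it stood at 0.854, 0.742, 0.393 and 0.419 FPKM at 0, 20, 60 and 180 min, and in replicate 2 at 5.43, 3.72, 2.38 and 1.13 FPKM. Replicate 2 dropped at each step, replicate 1 up to 60 min, and the groups overlapped throughout. The difference from 0 min was -0.36 ± 1.17, -1.05 ± 1.17 and -1.52 ± 1.17 at 20, 60 and 180 min (adjusted p = 0.997, 0.631 and 0.339 in the unpaired fit). In the paired fit, with an SE of 0.31, Ccr1 fell at 60 min (adjusted p = 0.025) and at 180 min (0.00272). The call at 60 min was lost without 0 min replicate 2 (0.245), 60 min replicate 1 (0.139) or 60 min replicate 2 (0.0799), and in the paired fit without the filter (0.0689). The call at 180 min held with each library left out. The drop at 180 min was -0.84 after median-ratio scaling of the paired fit (adjusted p = 0.0226).

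**Figure D2:**
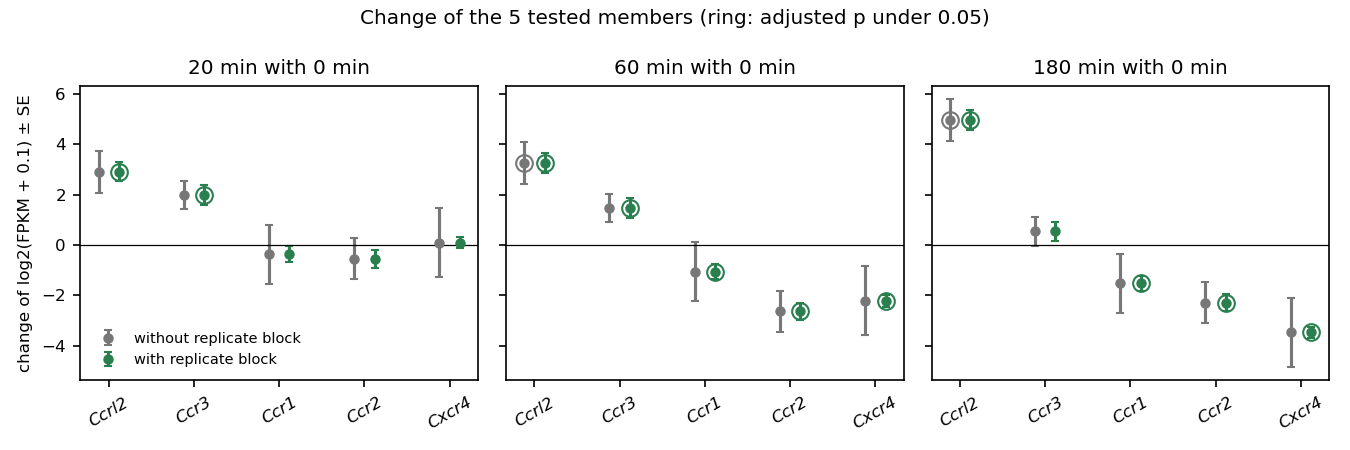
Difference from 0 min in log2(FPKM + 0.1) with its SE for the 5 members tested, at 20, 60 and 180 min, without the replicate block (grey) and with it (green), and a ring where the adjusted p was under 0.05. The differences are the same in both fits, and the SE of Cxcr4 shrinks from 1.37 to 0.23.

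Cx3cr1 encodes the receptor for the membrane-bound chemokine fractalkine and marks patrolling monocytes and many tissue macrophages. It lies on mm9 chromosome 9 from 119957801 to 119977414 on the minus strand. In replicate 1 it stood at 0.289, 0.297, 0.389 and 0.030 FPKM at 0, 20, 60 and 180 min, and in replicate 2 at 0.551, 0.820, 0.632 and 0.070 FPKM. The level held up to 60 min in both replicates, and both libraries of 180 min lay below the other 6. These last values rested on 26 and 11 reads (95% intervals 0.0195 to 0.0438 and 0.0352 to 0.126 FPKM). Within a replicate number the level at 0 min was 9.63-fold and 7.87-fold that at 180 min. Without the filter the difference at 180 min was -1.76 ± 0.51 (adjusted p = 0.0563 unpaired and 0.00516 paired), and from 60 to 180 min it was -2.01 (0.118 and 0.0116). Of 19855 genes, the paired fit without the filter called 6591 lower at 180 min and 1316 lower from 60 to 180 min.

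Ccr7 encodes the receptor for Ccl19 and Ccl21, which guides mature dendritic cells to lymph nodes. It lies on mm9 chromosome 11 from 99005513 to 99016391 on the minus strand. It was the lowest member up to 60 min, with 0.033, 0.026, 0.043 and 0.083 FPKM in replicate 1 and 0.070, 0.020, 0.058 and 0.150 FPKM in replicate 2. The highest value in each replicate was that of 180 min. The reads behind these values numbered 16 to 40 in replicate 1 and 2 to 13 in replicate 2. Without the filter the difference at 180 min was 0.51 ± 0.19 (adjusted p = 0.118 unpaired and 0.0400 paired). Of 19855 genes, the paired fit without the filter called 1587 higher at 180 min. At 180 min the 95% intervals of Ccr7 were 0.0592 to 0.113 FPKM in replicate 1 and 0.0799 to 0.257 in replicate 2, against 0.0207 to 0.0501 and 0.0282 to 0.145 at 0 min. The intervals of replicate 2 thus overlapped, and those of replicate 1 did not. None of 4 dendritic cell markers passed the filter, and their summed level was 0.347 to 0.496 FPKM at 0 min and 0.199 to 0.255 at 180 min.

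The order of the members by FPKM, which is per length of the whole gene span, changed over time. How the reads spread along each span was not examined. At 0 min the means ran from Cxcr4 (9.24 FPKM) through Ccr2 (3.98), Ccr1 (3.14), Ccrl2 (1.21), Cx3cr1 (0.420) and Ccr3 (0.323) to Ccr7 (0.0515). Each neighbour in that order down to Ccr3 overlapped the next in its 2 libraries, and only Ccr7 stood apart. Cxcr4 was the highest in replicate 1, and Ccr2 and Ccr1 lay above it in replicate 2. At 20 min Ccrl2 (11.1 FPKM) was first by mean, but Ccr2 was first in replicate 2. At 60 min Ccrl2 (11.2 FPKM) was first in both replicates. At 180 min it stood at 35.1 ± 6.41 FPKM (SD, n = 2), and the next means were those of Ccr1 (0.774), Ccr2 (0.633), Cxcr4 (0.626) and Ccr3 (0.513), whose ranges overlapped. Ccr7 (0.117) and Cx3cr1 (0.050) were last in both replicates.

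The replicates differed more for some members than for most genes. Averaged over the 4 times, replicate 1 minus replicate 2 was 2.48 for Cxcr4 and 1.28 for Ccrl2 on the log2 scale, and -0.66 for Ccr3, -1.31 for Ccr2 and -2.07 for Ccr1. A gap of at most that size either way was found in 99.7% of the 8343 genes for Cxcr4, 91.6% for Ccrl2, 66.7% for Ccr3, 92.3% for Ccr2 and 98.9% for Ccr1. The neutrophil and progenitor markers went the same way as Ccr1 and Ccr2 as a sum, but not each of them at every time. The 5 markers summed to 2.16, 2.11, 3.51 and 4.76 FPKM in replicate 1. In replicate 2 they summed to 6.48, 6.58, 10.0 and 7.44 FPKM. Among them S100a9 stood at 0.598 and 2.86 FPKM at 0 min. Elane and Mpo, which define early granulocyte precursors, had means of 0.0761 and 0.0468 FPKM. S100a8 was lower in replicate 2 at 180 min (3.63 and 3.52 FPKM), as was Elane at 60 min (0.011 and 0 FPKM). The part of these markers in the replicate gap of Ccr1 and Ccr2 was not tested. The 3 B cell markers analysed also summed higher in replicate 2 at each time, at 0.426 and 1.10 FPKM at 0 min. At that time it came mainly from Ms4a1 (0.268 and 1.07 FPKM), while Cd79a was lower in replicate 2 at each time and Pax5, the factor that sets B cell identity, had a mean of 0.00225 FPKM.

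Ccr1, Ccr3 and Ccr2 lie in this order in a cluster on chromosome 9, and the receptor-like gene Ccr1l1 lies 8.26 kb from Ccr1. No span overlapped another. Levels within the cluster went in both directions. Ccr3, which lies between Ccr1 and Ccr2 at 53.2 kb and 70.5 kb, was higher at 20 and 60 min than at 0 min in both replicates, whereas both of these neighbours were lower in both. The difference between the genes was not tested. Ccr1l1 was at most 0.3 FPKM in any library and was listed at 0 in 3.

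**Figure D3:**
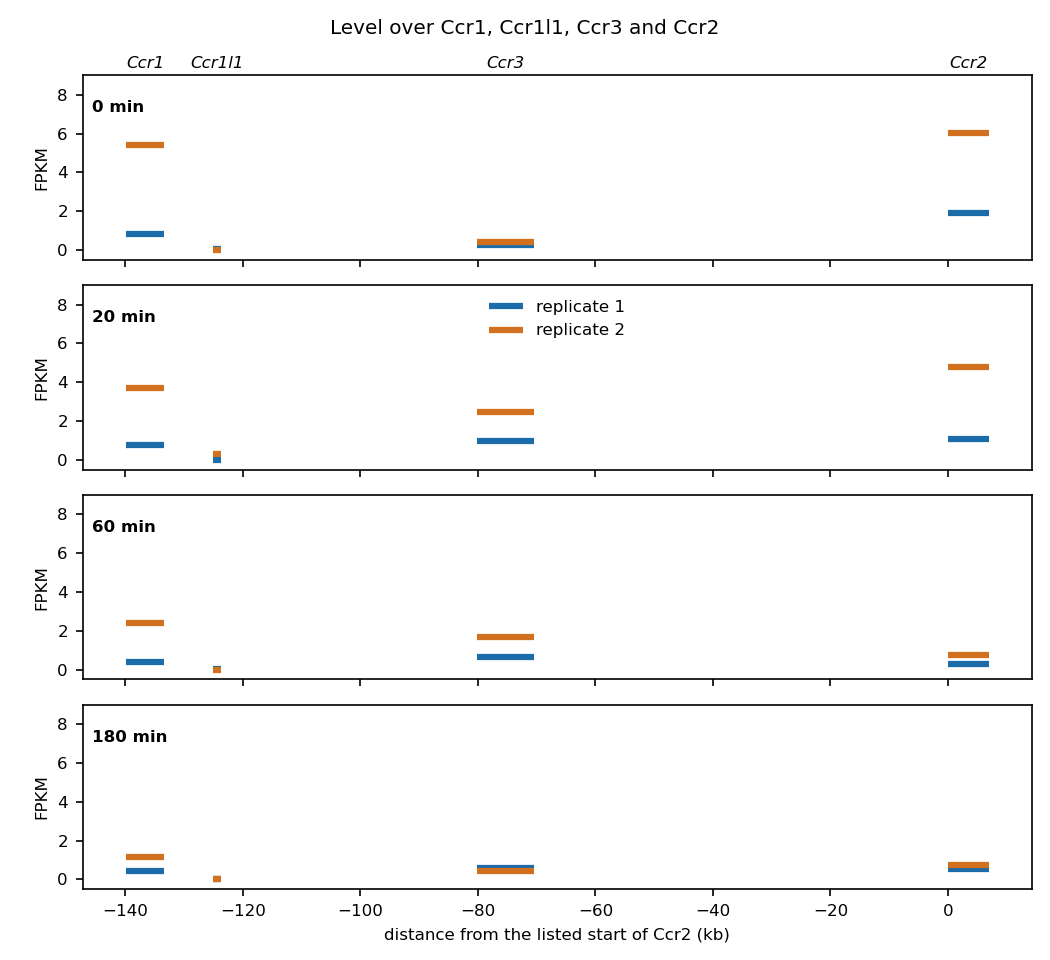
FPKM of Ccr1, Ccr1l1, Ccr3 and Ccr2 on chromosome 9 at 4 times (1 panel each), drawn as a bar over its span by distance in kb from the listed start of Ccr2, for replicate 1 (blue) and replicate 2 (orange). Ccr3 reaches 0.972 and 2.47 FPKM at 20 min, while Ccr2 goes from 1.92 and 6.04 FPKM at 0 min to 0.277 and 0.762 FPKM at 60 min.

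The other neighbours within 100 kb of a member were mostly low or had time courses of their own. Ccrl2 had 4 neighbours, of which the lactoferrin gene Ltf, 12.1 kb away, was at most 0.107 FPKM and Lrrfip2, 60.8 kb away, at 1.17 to 2.82 FPKM. Lrrfip2 rose at 60 min by 1.06 ± 0.26 (adjusted p = 0.0396), a call lost without any 1 of the 0, 20 or 60 min libraries (0.0871 to 0.246), and its difference at 180 min was 0.22 (0.535). Cx3cr1 had 7 neighbours. Csrnp1, a nuclear protein gene 64.0 kb from it, stood at 10.2 and 9.53 FPKM at 180 min and had risen by 3.06 ± 0.63 (0.0120) where Cx3cr1 was at its lowest. That call was lost without 0 min replicate 2 (0.0654) or 180 min replicate 2 (0.0722). Ccr8, 23.8 kb from Cx3cr1, was at most 0.006 FPKM. Of the 4 neighbours of Ccr7, Smarce1, a subunit of a chromatin remodelling complex, was at 1.32 to 2.16 FPKM and was not called at any time against 0 min. Igfbp4, 91.6 kb from Ccr7, was below the filter and went from 1.02 and 0.699 FPKM at 0 min to 0.117 and 0.177 FPKM at 180 min.

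Among 16 other receptors of the family, 2 passed the filter and 9 were below 0.1 FPKM in all libraries. The unpaired fit called 1 higher and 1 lower at 60 min and again at 180 min, and 0 at 20 min (0 higher and 1 lower before adjustment, 0 by voom), and the paired fit called the same numbers at both later times. Ccr9, a receptor of gut-homing lymphocytes, went from 0.262 and 0.262 FPKM at 0 min to 1.98 and 1.57 FPKM at 180 min, and rose by 2.36 ± 0.32 (adjusted p = 0.00286). Ccr10, a receptor of skin-homing lymphocytes, went from 2.01 and 2.28 FPKM to 0.166 and 0.103 FPKM and fell by 3.27 ± 0.51 (0.00458). Ccr9 passed the filter through its levels at 60 and 180 min, and Ccr10 through those at 0 min. That the tested receptors hold a rise and a fall is thus in part set by the filter. Cxcr5, which guides B cells into follicles, did not pass the filter and was at 0.209 to 0.820 FPKM. Nor did Xcr1, which marks dendritic cells that cross-present antigen, at 0.208 to 0.476 FPKM. At 180 min Ccrl2 was above each of these receptors in both replicates.

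**Figure D4:**
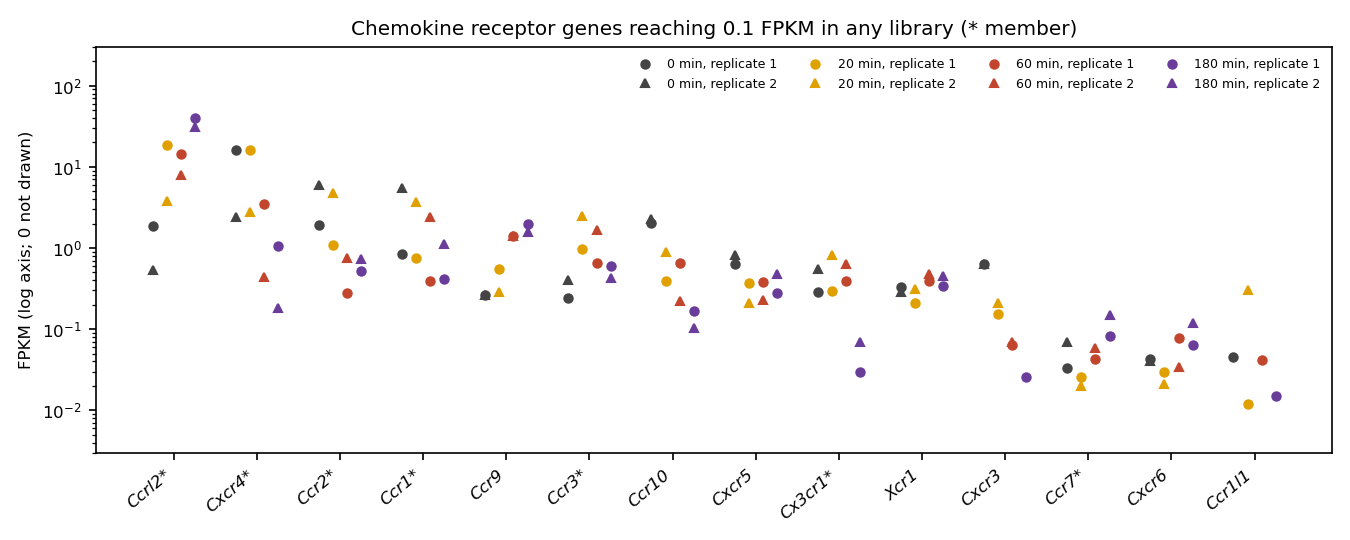
FPKM (log axis) of the 14 chemokine receptor genes, of 23 analysed, that reached 0.1 FPKM in any library, ordered by mean level, with circles for replicate 1, triangles for replicate 2 and colours for time. Values of 0 are not drawn, and Ccrl2 at 180 min holds the highest values at 39.7 and 30.6 FPKM.

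The ligands of the members were chemokines together with the cytokine Mif and the chemerin gene Rarres2. Of this list of 16 genes, 8 passed the filter. The unpaired fit called 0 of them at 20 min (4 higher and 1 lower before adjustment, 3 higher by voom), 5 higher at 60 min, and 6 higher and 1 lower at 180 min. The paired fit called 4 higher at 20 min, 6 higher at 60 min, and 6 higher and 1 lower at 180 min. Over all 8343 genes the unpaired fit called 0.108%, 5.07% and 8.93% higher at 20, 60 and 180 min. The paired fit called 2.30%, 11.7% and 14.2% higher at these times, and 51.6% lower at 180 min (23.4% unpaired). At 20 min voom called 45 of all genes higher. The median difference of the 8 tested ligands was 1.49, 2.78 and 2.63 at 20, 60 and 180 min, beside -0.20, -0.29 and -0.69 for all genes. The filter takes the mean over all times. Ccl5 and Ccl12 (0.042 and 0.421 FPKM at 0 min for Ccl12) passed it through their later levels. The counts and the median of the ligands are thus in part set by the filter. Ccl5, a ligand of Ccr1 and Ccr3, went from 0.359 and 0.506 FPKM at 0 min to 269 and 412 FPKM at 180 min, and rose by 9.30 ± 0.47 (adjusted p = 3.63e-04). Ccl7 and Ccl12, which bind Ccr2, rose by 2.89 ± 0.74 (0.0255) and 4.16 ± 0.66 (0.00495) at 180 min. The call of Ccl7 was lost without 0 min replicate 1 (1.97, adjusted p = 0.115), 180 min replicate 1 (0.0521) or 180 min replicate 2 (0.155). In both replicates the level of Ccr2 itself was lower at that time than at 0 min. Mif, a cytokine that also binds Cxcr4, was at 0.244 to 1.89 FPKM and not called against 0 min. Cx3cl1, the fractalkine gene, was below the filter, at 0.144 and 0.096 FPKM at first and 0.640 and 0.515 FPKM at 180 min. Cxcl12, the ligand of Cxcr4, was at most 0.072 FPKM in any library. Rarres2 was listed at 0 in all 8 libraries.

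Genes that carry the receptor signal were a list of 20, of which 18 passed the filter. The unpaired fit called 0 at 20 min (1 higher and 0 lower before adjustment, 0 by voom), 1 higher and 3 lower at 60 min, and 1 higher and 5 lower at 180 min. The paired fit called 1 higher at 20 min, 2 higher and 5 lower at 60 min, and 2 higher and 8 lower at 180 min. Among all 8343 genes, the share falling in the paired fit was 27.9% for 60 min and 51.6% for 180 min. The share rising was 11.7% and 14.2%. In the unpaired fit the share falling was 8.80% and 23.4%, and the share rising 5.07% and 8.93%. Whether the list differed from this background was not tested. The median difference of the 18 signalling genes at 180 min was -0.41, and 0.28 after median-ratio scaling of the paired fit, which called 5 higher and 7 lower. Arrb1, the arrestin that turns receptors off and carries them inward, went from 4.16 and 2.82 FPKM at 0 min to 0.492 and 0.076 FPKM at 180 min, and fell by 3.45 ± 0.59 (adjusted p = 0.00614). Plcb2, the phospholipase that makes the second messengers of the G protein signal, fell by 3.41 ± 0.26 (6.10e-04), and Gng2, a gamma subunit, by 2.34 ± 0.25 (0.00132). Cdc42 and Rac2, small GTPases that steer the actin skeleton, differed by -0.33 ± 0.40 (0.540) and 0.89 ± 0.64 (0.305). Rac2 was called in the paired fit (0.0167), and the value of Cdc42 turned to 0.41 after median-ratio scaling.

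The steps between successive times were tested in the same fits. From 20 to 60 min the unpaired fit called 0 of 5 (0 higher and 1 lower before adjustment), against 2.28% of all genes higher and 3.46% lower. The paired fit called 2 lower, Ccr2 and Cxcr4, against 9.29% higher and 14.6% lower. From 60 to 180 min the unpaired fit called 0 (0 before adjustment), against 4.08% and 3.92%, and voom called 0 in both intervals. There the paired fit called Ccrl2 higher and Cxcr4 lower, against 10.5% and 26.9%. The split of all genes in that interval went from 340 higher and 327 lower to 424 and 241 after median-ratio scaling, and in the paired fit from 872 and 2247 to 1251 and 1120.

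The genes whose time course was most like that of a member were sought over the 8 libraries, after the mean of each replicate number was taken out. The correlations describe 8 points that share replicates and times, and carry no test. For Ccrl2 they were Slc15a3, a lysosomal peptide transporter (r = 0.989), Myd88, the adaptor of Toll-like receptors (0.986), and Cited2, a transcription coregulator (0.986). For Ccr3 they were Clec12a, an inhibitory lectin receptor (0.969), Srsf5, a splicing factor (0.968), and Hspa5, a chaperone of the endoplasmic reticulum (0.961). Those of Cxcr4 were Pqlc1 (0.999), Epb4.1l1 (0.997) and Plxnc1, a semaphorin receptor (0.996). Those of Ccr2 were Wdr11, Fam63b and Erlec1 (0.996, 0.996 and 0.995). Those of Ccr1 were Neu1, the lysosomal sialidase, Tex43 and Usp38 (0.997, 0.996 and 0.996). A correlation takes no account of the size of a change. Usp38 went only from 1.58 and 1.53 FPKM at 0 min to 1.38 and 1.04 FPKM at 180 min. Among the members, Ccr1 and Ccr2 had r = 0.900, Ccr1 and Cxcr4 0.860, and Ccr2 and Cxcr4 0.850. Ccrl2 ran opposite to these 3, at -0.875 with Ccr1, -0.799 with Ccr2 and -0.768 with Cxcr4. Ccr3 stood apart from them, at 0.05 with Ccr1, -0.11 with Ccr2, 0.10 with Cxcr4 and 0.30 with Ccrl2.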

How the data were processed

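Nascent RNA of 8 GRO-seq libraries (4 times, 2 biological replicates each) was analysed from the table of FPKM that the authors deposited, with coordinates on mm9. Per the submitters' processing notes, CASAVA 1.7, Bowtie2 2.0.5 and HOMER 4.6 and 4.7 were used. How strands were counted is not stated, so reads of overlapping or antisense genes cannot be told apart. Another 8 columns, of a treatment that no sample here carries, were not used.

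Groups and replicate numbers came from the labels. The members, gene lists, tests and naming rule were chosen with earlier results of these data known. Genes averaging 0.5 FPKM or more were tested with limma 3.58.1 in R 4.3.3, on log2(FPKM + 0.1), with a variance trend, 4 groups in 1 model, two-sided moderated tests and a threshold of 0.05. The authors' FPKM were scaled no further. The count of reads behind each value was recovered from the steps of the deposited FPKM and used for voom and Poisson intervals. Replicate 1 minus replicate 2 correlated at 0.595 to 0.882 between the 6 pairs of groups, so the replicate numbers were taken to pair libraries. The naming rule took all members, neighbours within 100 kb, the 3 genes most alike, and from each list the 3 called genes with the largest change and the 2 not called with the highest level. Fits were tested on simulated data. Alternatives were median-ratio scaling, quantile normalization, voom, the replicate block, pseudocounts of 0.01 and 1 FPKM, the filter dropped or raised to 1 FPKM, and each library left out. The block without filter, with voom and with a library left out was added after the data had been seen. Batf3, Cd209a, Cd79a, Cxcl12, Elane, Flt3, Mpo, Ms4a1, Pax5, Rarres2, Siglec5, S100a8, S100a9 and Zbtb46 were named after their values were seen. Values of 2 further genes are not reported here.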

Additional observations from a re-analysis of the deposited data

How the results depend on the processing

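With the replicate block, called members numbered 2, 5, 4, 2 and 2 at 20, 60 and 180 min against 0 min, 60 against 20 and 180 against 60 min, and 5 by the F-test, against 0, 1, 1, 0, 0 and 1 unpaired. They were 2, 5, 5, 2, 2 and 5 with the block and median-ratio scaling, and 2, 5, 5, 3, 2 and 5 with the block and voom. These counts stand against a large background, since 4751 (scaling) and 6222 (voom) of all 8343 genes passed the F-test in those fits. Block and voom together gave 4408 falling genes against 1311 rising ones for 180 min, and 2825 against 1291 for 60 min. With the block and no filter, which tests all 7 members, the member counts were 0, 3, 6, 2, 2 and 7. The 0 at 20 min stands beside 2 before adjustment. Of the 19855 genes in that fit, 7189 passed the F-test, and for 180 min 6591 fell while 1587 rose. At 60 min the unpaired count of members was 0 with a pseudocount of 1, no filter or a filter of 1 FPKM. With each library left out, 1 group held only 1 library. The counts of members called then changed, unpaired and paired, as did the counts over all genes. In the paired fit the difference at 180 min ran from 4.35 to 5.56 for Ccrl2 and from -0.17 to 1.26 for Ccr3. It ran from -3.76 to -3.18 for Cxcr4, from -2.87 to -1.69 for Ccr2 and from -2.08 to -0.97 for Ccr1. Ccrl2 failed the unpaired F-test without 0 min replicate 2 (adjusted p = 0.0868) or 180 min replicate 1 (0.0780) or 2 (0.103).

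Unpaired differences changed sign with a library left out as follows. Those of Ccr1 ran from -1.63 to 0.91 at 20 min, -2.32 to 0.21 at 60 min, -1.86 to 0.47 for 60 against 20 min and -1.64 to 0.70 for 180 against 60 min. Those of Ccr2 ran from -1.56 to 0.47 at 20 min and -0.25 to 0.94 for 180 against 60 min, and those of Cxcr4 from -1.24 to 1.44 and -2.63 to 0.10. For 60 against 20 min Ccr3 ran from -1.14 to 0.11 and Ccrl2 from -0.77 to 1.47, with Ccrl2 at -0.064 by voom and -0.0092 with the block and voom. None of these was called unpaired, and the cause was not tested. Median-ratio scaling and quantile normalization changed no direction and no unpaired call of the 5 members. Median-ratio scaling turned Cdc42 at 180 min to 0.41, with and without the block. Depth limits Ccr7, Cx3cr1 at 180 min and replicate 2 of Ccrl2 at 0 min and Cxcr4 at 180 min.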
